A study of Homo sapiens with 6 samples.

Results

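The genes described here are 10 members of growth factor signalling through receptor tyrosine kinases: the epidermal growth factor (EGF) family ligands EREG, AREG, HBEGF and TGFA, the EGF receptors EGFR, ERBB2 and ERBB3, the ligand KITLG with its receptor KIT, and the receptor MET. They were taken by name from a table of RNA-seq read counts, in which 10 of 58735 named genes matched. The table covers 8505C, a human cell line established from an anaplastic thyroid carcinoma. It holds 3 libraries of cells with a control short hairpin RNA, whose genotype label reads wild-type, and 3 of cells with a hairpin against HHEX, a homeobox transcription factor. All cells carry the label untreated and stood in 6-well plates for 24 hours before total RNA was taken. The sources used here do not say how many hairpins or clones were used, and the columns, control1 to control3 and KD1 to KD3, give a library's group but not its replicate label. The series calls the libraries biological replicates, but in the titles 2 of a group share their first number, so the spread behind the p-values may be partly technical.

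EGF family ligands are made as membrane-anchored precursors, which proteases of the ADAM family cut to release the soluble factor. EGFR binds EREG, AREG, HBEGF and TGFA, while ERBB2 has no known ligand of its own and ERBB3, which has little kinase activity, signals mainly as a partner of ERBB2. KITLG, or stem cell factor, binds KIT, and MET binds hepatocyte growth factor (HGF). In thyroid carcinoma these receptors are known as inputs to the MAPK and PI3K pathways.

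EREG and AREG are neighbours on chromosome 4 that did not move together in these libraries, and HBEGF and MET are a ligand and a receptor that passed the test in 1 library labelled HHEX shRNA each, so the stretches before these 4 start sites are shown. Each is the 250 bases before the RefSeq start of the gene in GRCh38.p14, read 5′ to 3′ on the gene's strand. Capitals mark every match on either strand to 5 motifs. These were the TATA box, TATAAA, the cyclic AMP response element, TGACGTCA, the AP-1 site, TGANTCA, the CCAAT box, and the core of an SP1 site, GGGCGG, which a match on the other strand shows as its reverse complement.
EREG chr4:74364895-74365144 plus strand: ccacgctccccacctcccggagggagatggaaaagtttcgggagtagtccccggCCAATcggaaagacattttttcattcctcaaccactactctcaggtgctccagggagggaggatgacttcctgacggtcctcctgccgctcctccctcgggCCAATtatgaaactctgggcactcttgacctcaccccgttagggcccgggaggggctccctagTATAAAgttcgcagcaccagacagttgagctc
AREG chr4:74444886-74445135 plus strand: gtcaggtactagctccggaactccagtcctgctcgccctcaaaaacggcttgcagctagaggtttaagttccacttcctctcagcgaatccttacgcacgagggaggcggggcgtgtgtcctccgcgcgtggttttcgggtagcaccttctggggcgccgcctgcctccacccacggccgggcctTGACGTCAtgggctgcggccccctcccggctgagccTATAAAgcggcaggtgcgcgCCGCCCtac
HBEGF chr5:140346604-140346853 minus strand: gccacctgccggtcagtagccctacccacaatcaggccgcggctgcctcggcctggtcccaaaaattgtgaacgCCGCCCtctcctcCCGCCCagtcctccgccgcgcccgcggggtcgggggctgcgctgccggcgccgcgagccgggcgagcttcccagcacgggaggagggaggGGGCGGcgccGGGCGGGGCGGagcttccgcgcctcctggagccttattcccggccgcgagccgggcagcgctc
MET chr7:116671946-116672195 plus strand: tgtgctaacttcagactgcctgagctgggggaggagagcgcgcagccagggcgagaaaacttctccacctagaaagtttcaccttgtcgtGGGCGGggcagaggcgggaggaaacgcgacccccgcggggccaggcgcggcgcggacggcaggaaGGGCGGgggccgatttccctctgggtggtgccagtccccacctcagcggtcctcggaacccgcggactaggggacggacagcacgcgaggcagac
These genes and letters were chosen after the values and the AREG sequence had been seen. TATAAA begins 32 bases before the EREG start and 29 before the AREG start, and it is absent from the HBEGF and MET windows. In windows not shown here, TATAAA also begins 29 bases before the KITLG start and occurs before an EGFR start. Among all 35116 RefSeq windows of this length 10.7% hold it. TGACGTCA begins 65 bases before the AREG start and occurs in 1.65% of all windows, while EREG has CCAAT at 196 and 95 bases before its start, a match held by 32% of windows. The HBEGF window has 5 matches to GGGCGG, of which the last 2 overlap, and the MET window has 2, against 42.6% of windows with at least 1. TGANTCA, found in 6.57% of windows, is in none of the 4. A match is a run of letters and not a measured binding site. RefSeq windows were matched for 9 of the 10 genes.

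Library totals over named genes ran from 13333245 to 15144176 counts, so that 3 counts, taken as the floor of detection, lie at 0.196 to 0.225 CPM, the read count scaled by library size. HHEX itself had 12.5 ± 0.439 CPM (SD, n = 3) in the controls. It had 14.8 CPM in KD1, 7.94 in KD2 and 7.13 in KD3, which is 118%, 63.6% and 57.1% of the control mean. KD1 thus goes against its label at the RNA level, and the group difference in HHEX was a log2 fold change of -0.33 with an SE of 0.28 and an edgeR adjusted p of 0.527. Across all tested genes KD1 and KD2 correlated at 0.989, and each of them with KD3 at 0.955 and 0.957, while KD3 correlated at 0.971 to 0.978 with the controls. Each library labelled HHEX shRNA was also set against the 3 controls by itself. Such a test compares 1 library with the controls, not the conditions, and assumes that the lone library varies like a control.

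Of 7 markers of thyroid follicular cells, 3 passed the filter on low counts: the transcription factor genes NKX2-1 at 18 to 50.5 CPM, PAX8 at 2.58 to 5.48 and FOXE1 at 3.36 to 4.45. Among the rest, thyroglobulin (TG) and the iodide transporter gene SLC5A5 had at most 1 count in any library, and TSHR at most 4. The 6 epithelial markers summed to 1373, 1560 and 1184 CPM in the controls and to 2146, 1904 and 1317 CPM in KD1 to KD3, while E-cadherin (CDH1) had at most 1 count. Against the controls singly KRT7 and KRT8 were higher and EPCAM lower in KD1, and KRT7 was higher in KD2. The 5 endothelial markers summed to 29.3, 30.3 and 35.2 CPM in the controls and to 22.9, 20.1 and 15.5 CPM in those labelled HHEX shRNA. TIE1, at 6.08 to 20.2 CPM, was lower in KD1 and KD2, and CDH5, at 2.61 to 11 CPM, in KD3. PECAM1 lay at 1.91 to 5.91 CPM, and VWF and KDR had at most 7 and 1 counts. The 6 fibroblast markers summed to 54.2, 55.9 and 43.7 CPM in the controls and to 42.6, 47.7 and 14.4 CPM in KD1 to KD3, with COL3A1 lower in KD3. The 7 leukocyte and mast cell markers summed to between 3.29 and 5.52 CPM. Of the mast cell genes, TPSAB1 and MS4A2 were at 0 and CPA3 had up to 19 counts, or 1.24 CPM. None of these markers was called between the groups by edgeR, with 1 epithelial and 1 endothelial marker at an unadjusted p under 0.05. DESeq2 called KRT7 higher and TIE1 lower. Over all genes, 2937 of 14280 had an unadjusted edgeR p under 0.05, and DESeq2 called 862 of 13712. The share of all tested genes called in each single library is given below, and the markers were not tested against it. The part of these markers in the results was not tested. In bulk RNA of a cell line, fewer cells with a transcript and less of it per cell cannot be told apart.

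Of the 10 genes, 9 passed the filter on low counts and 1, KITLG, changed between the groups. Over all 14280 tested genes the same threshold, an edgeR quasi-likelihood p of 0.05 adjusted by Benjamini-Hochberg over all of them, was passed by 26, or 0.182%. Of the 9, 5 had an unadjusted p under 0.05 (2937 of the 14280), and the median log2 fold change was -0.02 against -0.01 over all tested genes. Set against the controls singly, KD1 had 2 of the 9 called (AREG and KITLG) where 15.6% of all tested genes were, KD2 had 3 (AREG, KITLG and MET) where 16.4% were, and KD3 had 2 (HBEGF and KITLG) where 1.10% were. The 2 groups did not overlap in CPM for 4 of the 9, with KITLG and HBEGF higher and AREG and ERBB3 lower in the libraries labelled HHEX shRNA. Among all tested genes, 11.6% did not overlap with the HHEX side higher and 13.3% with it lower.

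**Figure D1:**
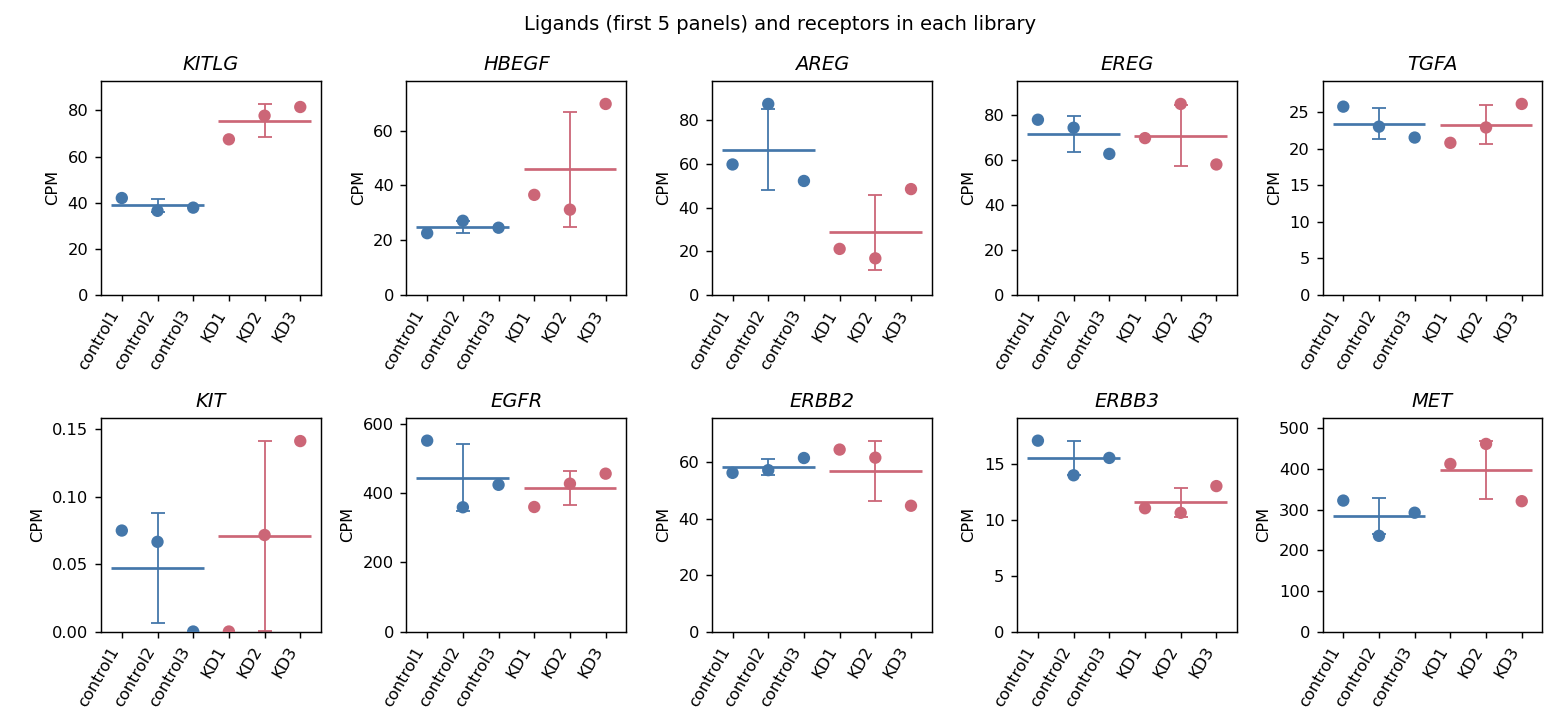
CPM of each gene in each library, on linear axes that start at 0, with 1 point per library, a line at the mean of 3 libraries and a bar of 1 SD. The 3 KITLG points labelled HHEX shRNA, 67.5 to 81.5 CPM, all sit above the control points at 36.4 to 42.0 CPM, while the EREG and TGFA points of the groups overlap.

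KITLG (ENSG00000049130, chromosome 12, 88492793 to 88580851, minus strand, GRCh38) encodes stem cell factor. Of the 9 tested genes, it alone passed the test against the controls in each library labelled HHEX shRNA. Its level was 42.0, 36.4 and 37.8 CPM in control1, control2 and control3, and 67.5, 77.7 and 81.5 CPM in the libraries KD1 to KD3. The lowest of the latter is well above the highest control, and KD3, which resembled the controls over all genes, had the highest value. The group means were 38.8 ± 2.89 and 75.6 ± 7.26 CPM (SD, n = 3 each), a 1.95-fold difference with a log2 fold change of 0.96 (SE 0.13, 95% interval 0.67 to 1.26, edgeR adjusted p = 0.0386). Against the controls singly the log2 fold changes were 0.80 in KD1, 1.00 in KD2 and 1.07 in KD3, with adjusted p of 0.00779, 0.00172 and 0.00671. The exact two-sided permutation test of 3 against 3 gave p = 0.1, the smallest it allows, as it did for the other 3 genes whose groups do not overlap. The group call was lost when any library but KD3 was left out, with an edgeR adjusted p between 0.101 and 0.257. The log2 fold change was then 0.94 to 1.05. Those fits called 0 or 1 of all 14280 tested genes, so the loss is not particular to KITLG.

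KIT (ENSG00000157404, chromosome 4, 54657918 to 54740715, plus strand), the receptor of this ligand, had 1, 1 and 0 counts in the controls and 0, 1 and 2 in KD1 to KD3. All 6 values lie under the floor of 3 counts, and the highest, 0.141 CPM, has an exact 95% Poisson interval of 0.0171 to 0.51 CPM, which covers counting error only. Any difference in KIT was not detectable at this depth. By likeness over the 6 libraries, among 10677 genes with a mean of at least 5 CPM, the closest to KITLG were ELOVL6 (Pearson r of log2 CPM 0.995), DNM1L (0.992) and MAP2K4 (0.9896). ELOVL6, a fatty acid elongase gene, lay at 18.0 to 21.8 CPM in the controls and 33.8 to 37.2 CPM in the libraries labelled HHEX shRNA.

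AREG, the amphiregulin gene (ENSG00000109321, chromosome 4, 74445134 to 74455009, plus strand), was low in 2 of the libraries labelled HHEX shRNA. It had 59.8, 87.6 and 52.2 CPM in control1 to control3, and 21.1, 16.7 and 48.5 CPM in the libraries KD1 to KD3. KD3 lies just under the lowest control, so the groups do not overlap but the gap is small. Against the controls AREG fell in KD1 to 31.7% of their mean (log2 fold change -1.66, edgeR adjusted p = 0.0032) and in KD2 to 25.2% (-1.99, adjusted p = 0.00122). In KD3 it stood at 72.9% of the control mean (-0.46, adjusted p = 0.461). The group difference was -1.21 (SE 0.41, 95% interval -2.16 to -0.26, adjusted p = 0.177) and did not pass the test. Without KD3 it was -1.80 with an edgeR adjusted p of 0.000149, in a fit that called 4657 of 14280 genes. Leaving out any other library gave an adjusted p of 0.285 to 0.443. With DESeq2 on all 6 libraries, which called 862 of 13712 genes, the adjusted p was 0.0266. The difference between KD3 and the other libraries was not tested.

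EREG, the epiregulin gene (ENSG00000124882, chromosome 4, 74365143 to 74388751, plus strand), lies next to AREG in the genome, with 56382 bases and 0 protein-coding genes between them. EREG had 77.8, 74.2 and 62.6 CPM in the controls and 69.6, 84.8 and 57.9 CPM in KD1 to KD3. Values of the groups interleave, and KD2, the library with the lowest AREG, has the highest EREG. The log2 fold change was -0.02 (95% interval -0.39 to 0.36, edgeR adjusted p = 0.967). Within a library, which removes library scaling, the ratio of AREG to EREG counts was 0.769, 1.18 and 0.834 in the controls, 0.303 in KD1 and 0.197 in KD2, and 0.838 in KD3. KD1 and KD2 lie below every control and KD3 lies among them. Genes closest to EREG over the 6 libraries were B3GNT10 (r 0.964), ABHD15 (0.962) and PDE1C (0.959). Further along the same cluster EPGN, before EREG, had 1.13 to 2.40 CPM in the controls and 1.69 to 3.01 CPM in the libraries labelled HHEX shRNA. BTC (betacellulin), 289749 bases past AREG, had 4.34 to 6.07 and 2.50 to 3.51 CPM, with no overlap, a log2 fold change of -0.72 and an adjusted p of 0.193.

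HBEGF (ENSG00000113070, chromosome 5, 140332843 to 140346631, minus strand) encodes heparin-binding EGF-like growth factor, which binds both EGFR and ERBB4. It had 22.5, 27.1 and 24.5 CPM in the controls and 36.5, 31.1 and 69.8 CPM in the libraries KD1 to KD3. All 3 values of the second group are above the controls, and KD3 stands far above the other 2. In KD3 HBEGF rose 2.82-fold (log2 fold change 1.496, edgeR adjusted p = 0.00107), while KD1 gave 0.56 (adjusted p = 0.0719) and KD2 0.33 (adjusted p = 0.286). The group difference of 0.89 (SE 0.29, 95% interval 0.24 to 1.54) had an adjusted p of 0.155. Without KD3 it was 0.47 with an edgeR adjusted p of 0.0228, in the fit that called 4657 of 14280 genes. Leaving out any other library gave an edgeR adjusted p of 0.297 to 0.395. With DESeq2, which called 862 of 13712 genes, the adjusted p was 0.0405.

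AREG and HBEGF were thus farthest from the controls in different libraries, AREG in KD1 and KD2 and HBEGF in KD3. Their count ratio, HBEGF over AREG, was 0.377, 0.309 and 0.469 in the controls and 1.73, 1.86 and 1.44 in KD1, KD2 and KD3. Each control has fewer HBEGF than AREG reads and each library labelled HHEX shRNA has more, but read counts also depend on gene length. Per kilobase of merged exons, HBEGF was below AREG in KD1 (12.1 against 12.8 CPM) and KD3 (23.1 against 29.4). In KD2 they were close, at 10.3 and 10.2. Since HBEGF lies above and AREG below every control in each library labelled HHEX shRNA, their ratio must separate the groups. Altogether 6 ratios were computed after the values had been seen, so none was tested. The ratio of HBEGF to EREG was 0.29, 0.365 and 0.392 in the controls and 0.525, 0.367 and 1.2 in KD1 to KD3, which overlap, while KITLG over EREG was 0.54, 0.491 and 0.604 against 0.969, 0.916 and 1.41, which do not.

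**Figure D2:**
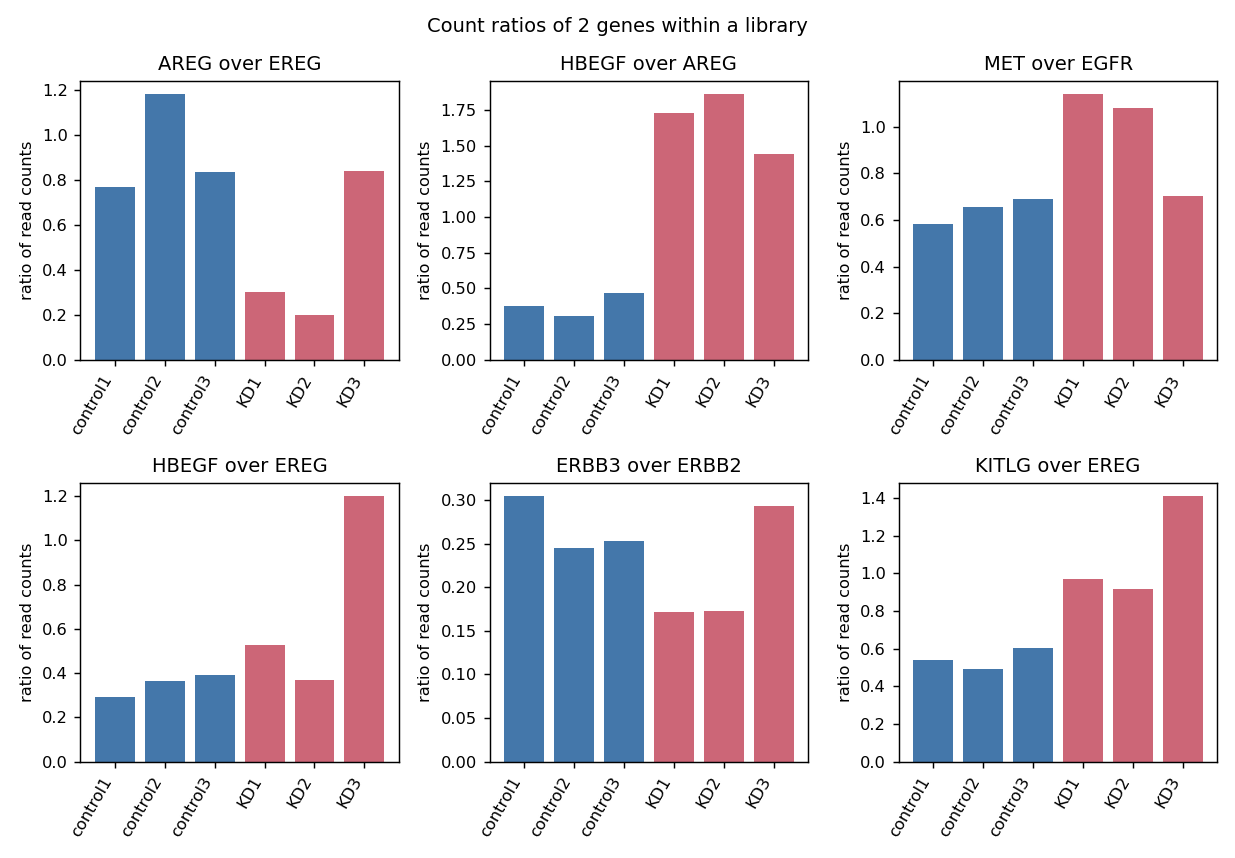
Ratio of the read counts of 2 genes within each library, as bars from 0, in 6 panels for the 3 control libraries and KD1 to KD3. HBEGF over AREG is at most 0.469 in a control and at least 1.44 in a library labelled HHEX shRNA, and AREG over EREG is low in KD1 and KD2 but 0.838 in KD3.

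TGFA (ENSG00000163235, chromosome 2, 70447280 to 70554193, minus strand), which encodes transforming growth factor alpha, had 21.5 to 25.8 CPM in the controls and 20.8 to 26.1 CPM in the libraries labelled HHEX shRNA. The ranges nearly coincide. The log2 fold change was -0.01 (SE 0.16, 95% interval -0.37 to 0.35, edgeR adjusted p = 0.979). The interval leaves out a change as large as that of KITLG in either direction.

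EGFR (ENSG00000146648, chromosome 7, 55019021 to 55211628, plus strand), the receptor of the 4 EGF family ligands above, had 552.6, 359.7 and 424.7 CPM in the controls and 360.5, 428.0 and 457.0 CPM in KD1 to KD3. The highest and the lowest value are both controls. The log2 fold change was -0.10 (95% interval -0.52 to 0.32, edgeR adjusted p = 0.779). ERBB2 (ENSG00000141736, chromosome 17, 39687914 to 39730426, plus strand), the partner receptor, had 56.3 to 61.6 CPM in the controls and 64.6, 61.7 and 44.6 CPM in KD1 to KD3, with a log2 fold change of -0.04 (95% interval -0.40 to 0.32, adjusted p = 0.915). KD3 is the lowest and KD1 the highest of all 6. Exons of ERBB2 share 194 bases with PGAP3 and 571 with MIEN1 on the other strand, and since the sources used here do not state a stranded count, reads there cannot be told apart.

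ERBB3 (ENSG00000065361, chromosome 12, 56076799 to 56103505, plus strand) had 17.1, 14.0 and 15.6 CPM in the controls and 11.1, 10.7 and 13.1 CPM in the libraries KD1 to KD3. The groups do not overlap, but the highest value labelled HHEX shRNA is close to the lowest control. The log2 fold change was -0.43 (SE 0.18, 95% interval -0.82 to -0.03, edgeR adjusted p = 0.22), and no single library passed the test (adjusted p 0.208, 0.162 and 0.679). Without KD3 the edgeR adjusted p was 0.0446 at -0.50, in the fit that called 4657 of 14280 genes. Leaving out any other library gave an edgeR adjusted p of 0.369 to 0.568. The fourth receptor of the family, ERBB4, had 0 to 10 counts and was not tested. ERBB3 over ERBB2 in counts was 0.305, 0.245 and 0.253 in the controls and 0.172, 0.173 and 0.293 in KD1 to KD3, so the low ratio is in KD1 and KD2 and KD3 lies among the controls.

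MET (ENSG00000105976, chromosome 7, 116672390 to 116798386, plus strand), the receptor of HGF, had 322.4, 235.6 and 292.5 CPM in the controls and 412.5, 461.9 and 320.9 CPM in KD1 to KD3. KD1 and KD2 exceed every control, and KD3 falls just under the highest. In KD2 MET rose 1.63-fold (log2 fold change 0.70, edgeR adjusted p = 0.0214), while KD1 gave 0.54 (adjusted p = 0.0654) and KD3 0.18 (adjusted p = 0.705). The group difference was 0.49 (SE 0.18, 95% interval 0.08 to 0.90, adjusted p = 0.191). Without KD3 it was 0.65 with an edgeR adjusted p of 0.00365, in the fit that called 4657 of 14280 genes. Leaving out any other library gave an edgeR adjusted p of 0.251 to 0.535. MET over EGFR in counts was 0.583, 0.655 and 0.689 in the controls, 1.14 in KD1 and 1.08 in KD2, and 0.702 in KD3. In KD1 and KD2 MET had more reads than EGFR, and in the controls and KD3 fewer, but read counts also depend on gene length. Per kilobase of merged exons, MET was above EGFR in all 6 libraries, with 45.8 against 44.1 CPM in control1 and 45.6 against 36.5 in KD3. HGF, the ligand, had 5 to 22 counts in any library and was not tested.

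**Figure D3:**
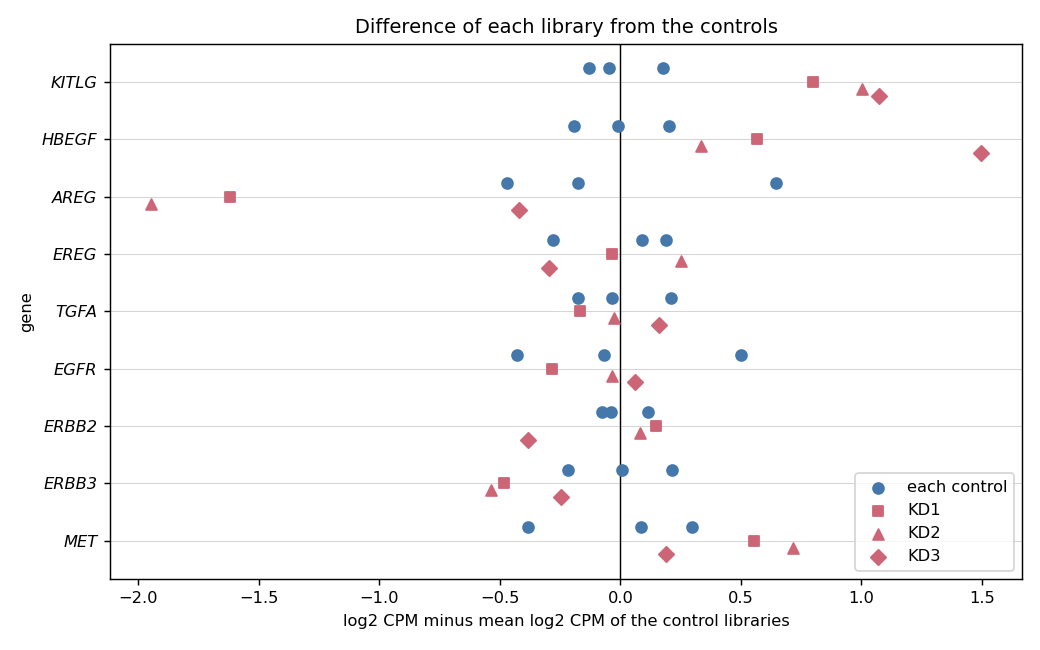
Difference of each library from the controls in log2 CPM (prior count 2), 1 row per gene, where each control is compared with the other 2. The 3 KITLG points lie together to the right of 0, the AREG points of KD1 and KD2 lie left of the controls, and the HBEGF point of KD3 lies right of those of KD1 and KD2.

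Levels of different genes were compared per length, as CPM per kilobase of the merged GENCODE 29 exons of a gene, which run from 1648 bases in AREG to 12521 in EGFR. In the controls AREG (40.4 ± 11.3 CPM per kilobase), MET (40.3 ± 6.26) and EGFR (35.6 ± 7.84, SD, n = 3 each) came first, and these 3 overlap. EREG followed at 12.5 ± 1.39 and HBEGF at 8.19 ± 0.753, both separate from their neighbours. KITLG at 6.25 ± 0.466 and ERBB2 at 5.66 ± 0.272 overlap, then came TGFA at 4.72 ± 0.432 and ERBB3 at 1.72 ± 0.172. KIT averaged 0.00847, the lowest of the 10. In the libraries labelled HHEX shRNA the AREG level was 10.2 to 29.4 CPM per kilobase, HBEGF 10.3 to 23.1 and KITLG 10.9 to 13.1. The ranges of these 3 ligands overlap there, whereas in the controls they are separate. This restates the group differences of these 3 genes given above and is not a separate result. Merged exons count every annotated isoform, so a gene with unused long exons reads low on this scale.

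**Figure D4:**
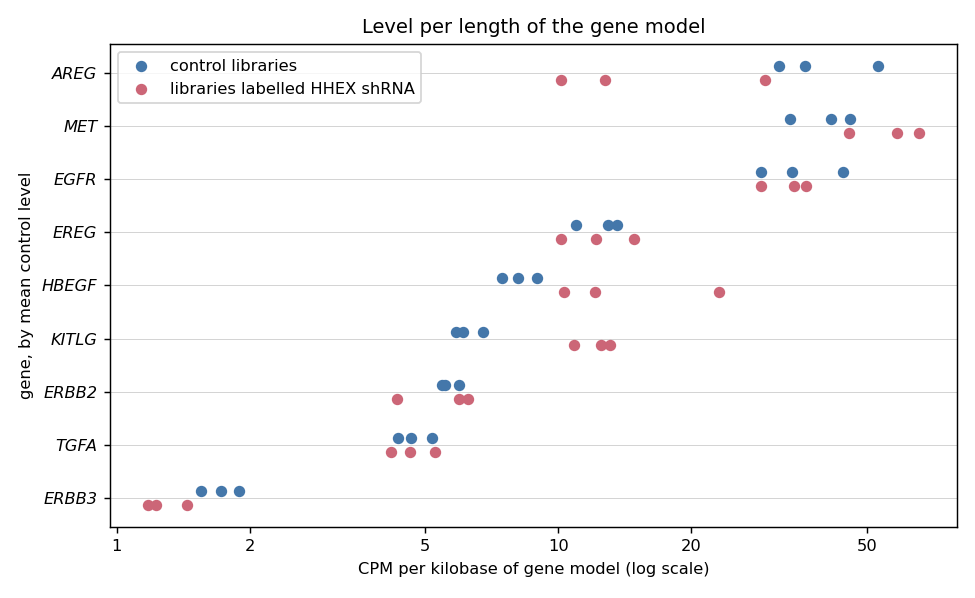
CPM per kilobase of merged exons of 9 genes in each library on a log axis, ordered by the control mean, with KIT left out because it is near 0. AREG, MET and EGFR lead in the controls, and the AREG points labelled HHEX shRNA lie at 10.2 to 29.4.

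Other genes of the pathway were taken from lists by role. None of the 4 tested of 7 further EGF family ligands, of 9 tested shedding and trafficking genes of 10, of 15 adaptors, of 13 inhibitors, of 21 tested of 31 other receptor tyrosine kinases, or of 18 tested of 25 other ligands changed between the groups by edgeR. At an unadjusted p under 0.05 there were 1, 2, 2, 3, 8 and 3 respectively, and DESeq2 called 0, 1 (ADAM12), 0, 0, 2 (MST1R and DDR2) and 1 (FGF5). Over all genes, 2937 of 14280 had an unadjusted edgeR p under 0.05, and DESeq2 called 862 of 13712. The medians of the log2 fold changes were 0.25, 0.04, 0.19, 0.18, -0.000345 and -0.11, beside -0.01 over all tested genes. Single-library calls named below for genes of a list stand beside the share of all tested genes called in that library, given above. That share was far higher in KD1 and KD2 than in KD3. Whether any list was called more often than all tested genes was not tested. NRG1 (neuregulin 1), a ligand of ERBB3, had 8.08 to 8.78 CPM in the controls and 8.64 to 13.4 CPM in the libraries labelled HHEX shRNA, a log2 fold change of 0.43 with an adjusted p of 0.29.

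Among shedding genes, ADAM12, a protease that can release HBEGF, had 17.6, 9.84 and 11.9 CPM in the controls and 45.0, 47.1 and 13.4 CPM in KD1 to KD3. It rose in KD1 and KD2 by edgeR (adjusted p = 0.000888 and 0.000655), while KD3 is among the controls (adjusted p = 0.973). The group difference of 1.42 had an adjusted p of 0.171. RHBDF1, an inactive rhomboid that acts in EGF ligand trafficking, had 18.6 to 23.9 CPM in the controls and 12.6 to 15.9 CPM in the other group, with no overlap and an adjusted p of 0.139. The adaptors CRK and CRKL had group differences of 0.32 and 0.36 with an adjusted p of 0.186 each, and none of the 15 adaptors was called in a single library.

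Among the inhibitors, PTPN1, a phosphatase of receptor tyrosine kinases, had 113.5 to 121.5 CPM in the controls and 189.7, 175.9 and 134.2 CPM in KD1 to KD3. It rose in KD1 and KD2 (edgeR adjusted p = 0.00666 and 0.0169), as did the phosphatase gene PTPRJ (0.0331 and 0.0284), and the group values were 0.134 and 0.149. CBLB, a ubiquitin ligase of EGFR, fell in KD1 and KD2, with 11.4 and 9.80 CPM against 19.1 to 21.2 CPM in the controls (adjusted p = 0.0309 and 0.0115), and had 19.98 CPM in KD3. SOCS5 rose in KD2 (adjusted p = 0.0428). ERRFI1, which encodes the EGFR inhibitor MIG6, had 231.4, 209.9 and 172.4 CPM in the controls, 140.6 and 141.5 CPM in KD1 and KD2, and 414.3 CPM in KD3. It rose in KD3 (log2 fold change 1.02, adjusted p = 0.013), the library with the highest HBEGF, and was at -0.54 and -0.53 in KD1 and KD2 (adjusted p 0.0702 and 0.0726). CBLB, SOCS5 and ERRFI1 were picked after their values had been seen.

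Among the other receptor kinases, MST1R, the closest relative of MET, had 2.66 to 3.98 CPM in the controls and 0.787 to 1.62 CPM in the libraries labelled HHEX shRNA, without overlap (log2 fold change -1.40, edgeR adjusted p = 0.126). DDR2, a collagen receptor, had 6.52 to 11.0 and 2.57 to 5.23 CPM, also without overlap (-1.17, adjusted p = 0.131). DDR2 and FGFR4 fell in KD1, DDR2, FGFR4 and MST1R fell in KD2, and IGF1R rose in KD2 to 165.4 CPM from 81.1 to 102.2 CPM in the controls (adjusted p = 0.0067). AXL was abundant in all libraries, at 1359 to 1578 CPM. FGFR2, FLT3, RET and ROR2 had 0 counts in each of the 6 libraries. FGFR4, IGF1R and AXL were picked after their values had been seen. Whether the 21 tested kinases were called in KD1 or KD2 more often than all tested genes was not tested.

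Of the other ligands, FGF5 had 15.6, 11.4 and 14.3 CPM in the controls and 37.1, 41.8 and 19.8 CPM in the libraries KD1 to KD3. The groups do not overlap, and KD1 and KD2 lie higher than KD3. FGF5 rose in KD1 and KD2 (edgeR adjusted p = 0.00109 and 0.000456) but did not pass in KD3 (0.363) or between the groups (log2 fold change 1.26, adjusted p = 0.0986). SPINT2, an inhibitor of the proteases that activate HGF, fell in KD2 (adjusted p = 0.0325). Of 6 genes often used as expression references, none was called between the groups by edgeR, and DESeq2 called B2M lower. ACTB and HPRT1 rose in KD1 and ACTB rose in KD2, where ACTB had 4637 and 4221 CPM against 2108 to 2695 CPM in the controls, so a ratio to ACTB would not be the same as a CPM in these libraries.

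**Figure D5:**
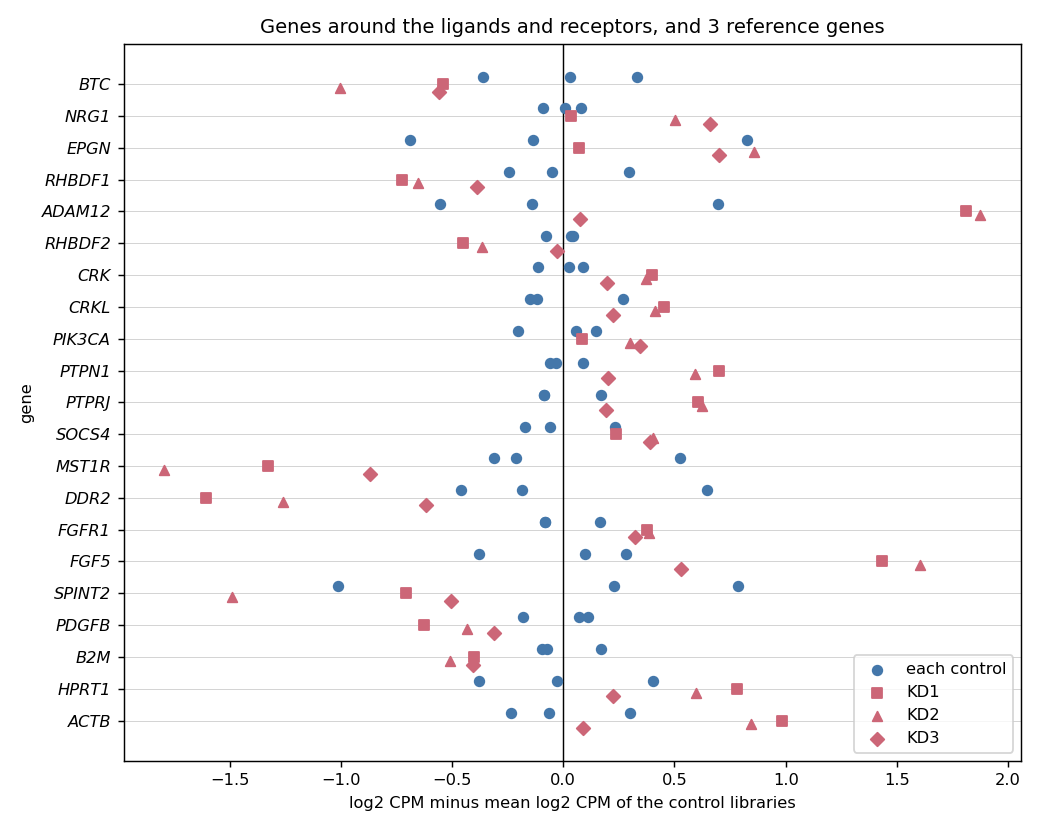
Difference of each library from the controls in log2 CPM (prior count 2) for pathway genes taken by the smallest p of each list, with each control compared with the other 2. ADAM12 and FGF5 in KD1 and KD2 lie right of the controls, with the KD3 point nearer to them.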

How the data were processed

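The authors deposited raw read counts per gene, per the file headers, and the values are whole numbers whose totals differ between libraries. A further 6 columns of values per library were not used. Per the labels' protocols, mRNA was captured from Trizol-isolated RNA. Aligner, counter and genome build: not given in the sources used here. Coordinates of all 10 genes equal GENCODE 29 (GRCh38). Of 59733 entries, 998 without a gene name, 0.239% to 0.298% of the counts, entered no total or test.

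Counts were scaled by TMM, filtered with filterByExpr by group, which left 14280 genes, and tested two-sided without covariates with glmQLFit (robust) and glmQLFTest of edgeR 4.0.16 in R 4.3.3. Benjamini-Hochberg adjustment covered every tested gene, and 0.05 was the threshold. Each library labelled HHEX shRNA was tested against the 3 controls on the same table. CPM use TMM factors and log2 CPM a prior count of 2. SE is the absolute log2 fold change over the root of F. Intervals of counts are exact Poisson. Code was tested on simulated data.

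The 10 genes, the lists and the tests were chosen with earlier results of these data known. Named besides them are up to 3 genes with the smallest p in each list, and the 3 genes most like KITLG and EREG. Alternatives were RLE, upper-quartile and total scaling, 2 other filters, DESeq2 1.42.0, 1 fit with all 6 libraries and leaving out each library. Some genes of the lists are not reported here by name.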

Additional observations from a re-analysis of the deposited data

How the results depend on the processing

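KITLG was higher in the libraries labelled HHEX shRNA under all 12 alternatives, at a log2 fold change of 0.90 to 1.05, with adjusted p from 1.64e-06 to 0.257, and it passed the threshold in 7 of them. Of the 9 genes that passed the filter, 1 was called in the main edgeR fit (TMM, filtered, all 6 libraries) and 3 (AREG, HBEGF and KITLG) with DESeq2. Without a filter on low counts, a fit that also held KIT, 2 (HBEGF and KITLG) were called. Over all genes the calls numbered 26, 1359 without the filter and 862 with DESeq2. Leaving out each library in turn gave 0 to 5 of the genes and 0 to 4657 calls over all. The 5 (AREG, HBEGF, ERBB3, KITLG and MET) came without KD3. Leaving out any other library gave 0 by edgeR, in fits that called 0 or 1 of all 14280 tested genes. At an unadjusted p under 0.05 there were 2 (without KD1) to 4 (without control1) of the 9. The share of all genes under it was not counted in these fits, so these numbers have no background. DESeq2 and the fits without a filter or without KD3 thus make more calls than the main edgeR fit, and the cause was not tested.

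Against the controls singly, the calls of AREG and KITLG in KD1 and KD2, of MET in KD2 and of HBEGF and KITLG in KD3 held under all 7 alternatives. KD1 also had MET called without control1 and HBEGF without control2. Leaving out each control gave 1512 to 3360 calls over all genes in KD1, 1558 to 3289 in KD2 and 149 to 553 in KD3. Directions turned only among differences that no fit called. EREG was at 0.004 with RLE factors and 0.004 with DESeq2, and TGFA at 0.008 and 0.009. Leaving out each library gave -0.166 to 0.13 for EREG, -0.08 to 0.086 for TGFA, -0.22 to 0.106 for EGFR and -0.135 to 0.133 for ERBB2. Leaving out each control gave -0.126 to 0.025 for EREG in KD1, -0.09 to 0.041 for TGFA and -0.191 to 0.126 for EGFR in KD2, and -0.096 to 0.221 for EGFR in KD3, where library totals gave -0.022. No paired analysis was possible because the columns carry no replicate label of the titles. Depth limits KIT, HGF and ERBB4, which stayed under the filter.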
